A study of Mus musculus with 4 samples.

Results

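Solute carriers are the membrane proteins that move nutrients, ions and metabolites across the plasma membrane and the membranes of organelles. Many of their genes carry symbols made of Slc, a family number, the letter a and a member number. They were examined here in the RNA of mouse embryonic stem cells that were wild type or mutant for Chd2, which encodes an ATP-dependent chromatin remodeler. The members were the rows of the authors' deposited table whose symbol has this form and whose mean over the genotypes was at least 0.5 FPKM, a unit of fragment number corrected for transcript length and sequencing depth. Of 341 rows with such a symbol, among 23309 in the table, 176 were under this level. Another 8 were left out by the rule because they belong to other gene groups, namely Slc40a1, Slc11a2, Slc38a4, Slc22a18, Slc2a1, Slc2a3, Slc16a1 and Slc16a3. This left 157 members. Solute carrier genes with other forms of symbol, such as the Slco genes, are not among them. The members were grouped by the substrate of their family into amino acid (26), nucleoside (6), ion (46) and mitochondrial Slc25 carriers (35). Further classes were sugar (9), nucleotide sugar (5) and other organic solute transporters (30).

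Both groups were embryonic stem cells of the 129/Ola strain, grown on gelatin with serum and leukemia inhibitory factor, with 2 libraries of total RNA per genotype, marked as lots 1 and 2. The control group was wild type, and the other carried the Chd2 mut/mut genotype, which the sample titles call Chd2KO. The labels say neither what the mutation is nor how many clones were used, nor whether lots were separate cultures. For each genotype the file analysed holds a single FPKM value of every gene, and no standard deviation can be given. Whether a gene differed is taken from the q-value and the call in the authors' deposited table. Which test gave them is not stated in any source used here. Whether the spread behind those q-values is technical is not known. Depth is unknown.

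Chd2 itself was at 10.2 FPKM in wild-type cells and 5.69 FPKM in mutant cells, with a q-value of 0.0103 in the authors' deposited table. Markers of embryonic stem cells were present in both genotypes, the lowest of the 10 listed being at 16.7 FPKM in wild-type cells and 18.1 FPKM in mutant cells. None of the 8 endoderm markers reached 1 FPKM in either genotype. Among the other cell types 1 of 8 fibroblast markers (Thy1), 2 of 8 trophoblast markers and 4 of 7 neural markers reached 1 FPKM in both. Summed levels were 14.7 and 11.8 FPKM in wild type and mutant for fibroblast markers, 12.3 and 12.01 FPKM for trophoblast markers and 59.2 and 58.1 FPKM for neural markers, and 3 fibroblast, 1 trophoblast and 1 endoderm marker were listed at 0 in both. In bulk RNA, fewer cells of a type and less RNA per cell cannot be told apart.

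Transporters work as families in which the same substrate is often served by several proteins that differ in affinity, coupling ion or location. Sodium-coupled carriers use the gradient set by the sodium pump, and exchangers trade 1 solute for another. Most Slc25 carriers link the cytosol to the mitochondrial matrix, where most ATP of resting cells is made. Pluripotent cells depend on amino acid uptake for growth, and mouse embryonic stem cells in particular draw on threonine and glutamine.

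The summed level of the 157 members was close between the genotypes, at 3654 FPKM in wild-type cells and 3599 FPKM in mutant cells. Slc25a5 and Slc25a3 alone held 40.7% and 40.6% of it in wild type and mutant, and 4 of the 157 rows encode no transporter. FPKM is relative to depth, so the sum is not an amount of RNA per cell. Calls were made for 2 members in the authors' deposited table, Slc47a1 and Slc4a5, and both fell in the mutant. They are 1.27% of the 157 members, against 0.687% of all 11795 genes kept by the same level. Of the 146 members with a q-value under 1 they are 1.37%, against 0.718% of 11276 genes with such a q-value. Calls of lower genes make up 0.461% of the same background and calls of higher genes 0.257%. No member was called higher. The share rests on 2 genes and lies near the background. With so few calls over all genes, a class without a call says little about its members. As the log2(FPKM + 1) of mutant cells minus that of wild-type cells, the members had a median of 0.01, with 88 above 0 and 69 below. Over all 11795 genes kept the median was 0.00, with 5913 above and 5882 below. The share above 0 varied with level, so counts by sign in the groups below also depend on level. From 1 to 10 FPKM it was 60.5% for members and 58.0% for all genes. At 10 FPKM or more it was 51.8% and 42.1%, and under 1 FPKM 46.7% and 55.4%. The median size of the difference, without its sign, was 0.10 for the members and 0.10 for all these genes. A q-value of at least 0.9 was given to 132 members, or 84.1%, against 83.5% of all genes kept.

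**Figure D1:**
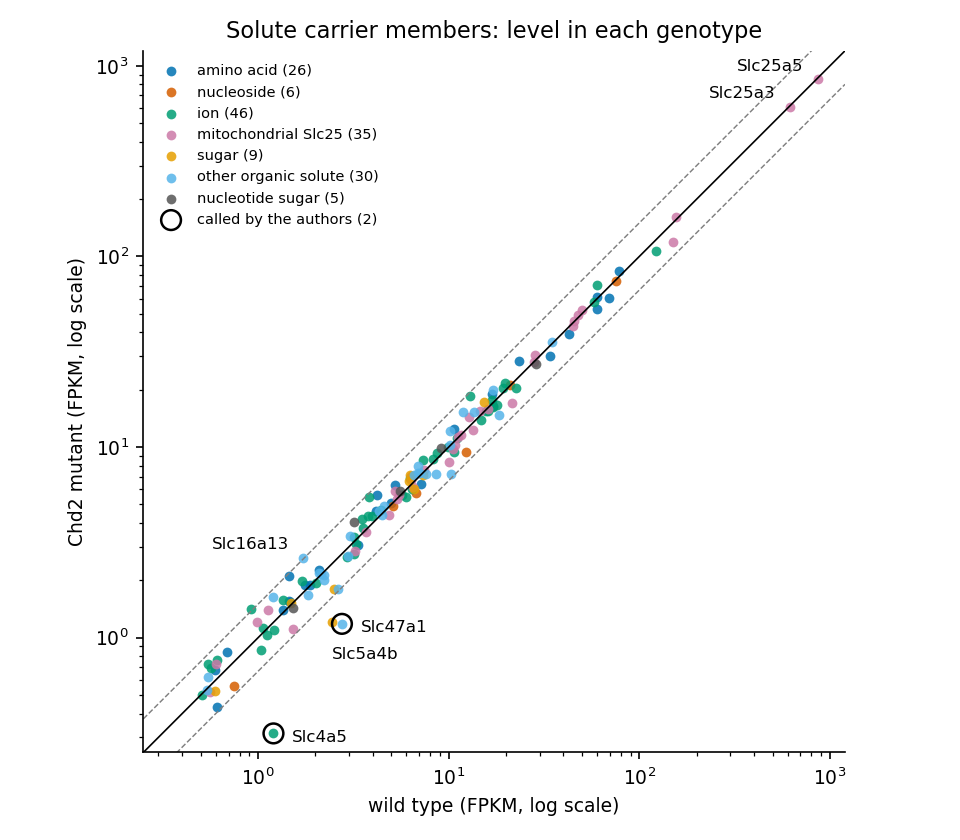
Level of each of the 157 members in wild type (horizontal axis) and Chd2 mutant cells (vertical axis), in FPKM on log scales, coloured by substrate class; the solid line marks equal levels, the dashed lines a ratio of 1.5 in either direction, and black circles the members called by the authors. Slc47a1, Slc4a5 and the uncalled Slc5a4b lie below the lower dashed line, 2 members, Slc16a13 among them, above the upper one, and the most abundant members lie close to the line of equal levels.

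Differences of 1.5-fold or more were found for 5 members, which is 3.18% against 5.53% of all genes kept. Those lower in the mutant were Slc47a1, Slc4a5 and Slc5a4b, Slc16a13 was among the 2 on the higher side, and all 5 had a mean under 3 FPKM. None of the 90 members with a mean of at least 5 FPKM differed by 1.5-fold, while 2.173% of all 7500 genes at that level did. A ratio of at least 1.2 in either direction was found for 21.0% of the members and 21.4% of all genes kept. The members tended to lower levels than other genes, with a median over members of 6.31 FPKM against 9.06 FPKM for all genes kept, each taken as the mean of the genotypes. Levels chose the members, so these levels are a description. Of the 157, 5 had a mean of 100 FPKM or more, 51 lay from 10 to 100, 86 from 1 to 10, and 15 under 1 FPKM. The members just inside the threshold were Slc26a11 at 0.508 and 0.498 FPKM in wild type and mutant, Slc38a3 at 0.606 and 0.434 FPKM and Slc22a17 at 0.536 and 0.534 FPKM. Just outside were the pseudogene row Slc2a4rg-ps at 0.397 and 0.596 FPKM, Slc15a1 at 0.5898 and 0.377 FPKM and Slc9a5 at 0.479 and 0.423 FPKM. Only 3 members were under 0.5 FPKM in 1 of the genotypes, Slc4a5, Slc38a3 and Slc26a11, and all 3 passed through their level in wild type.

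Slc47a1 encodes MATE1, a proton-coupled exporter of organic cations and many drugs, known from kidney and liver. It was at 2.75 FPKM in wild-type cells and 1.18 FPKM in mutant cells. It fell 2.33-fold, with a log2 fold change of -1.22 and a q-value of 0.0103 in the authors' deposited table. That q-value is the lowest in the table and is shared with other genes, Slc4a5 among them. Its neighbour in the family, Slc47a2, was under the threshold for members and not called, at 0.222 and 0.0361 FPKM in wild type and mutant. The precision of such low values is unknown.

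Slc4a5 encodes NBCe2, which carries sodium together with bicarbonate and so moves base across the membrane. It was at 1.204 FPKM in wild-type cells and 0.315 FPKM in mutant cells. It fell 3.83-fold, with a log2 fold change of -1.94 and a q-value of 0.0103 in the authors' deposited table. The level of 0.315 FPKM is below the limit used for members, and without a count the precision of such a low value is unknown. On the log2(FPKM + 1) scale, which understates changes of genes near 1 FPKM, the differences were -0.78 for Slc47a1 and -0.75 for Slc4a5. Neither gene shares exon bases with another gene in the GENCODE M21 annotation.

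The promoter of Slc4a5 is shown because it is the called member with an entry among the RefSeq promoter windows, and those of Slc25a5 and Slc25a3 because they are the most abundant members. Each sequence is the 250 bases before the annotated start in build GRCm38.p6, which is not the build of the deposited values. It need not be the start used in these cells. Capitals mark matches, on either strand, to 4 motifs that were searched, the GC box GGGCGG, the CCAAT box CCAAT, the TATA element TATAAA and the E-box CACGTG, which share no bases with each other in these windows.
Slc4a5, chr6:83237125-83237374, plus strand: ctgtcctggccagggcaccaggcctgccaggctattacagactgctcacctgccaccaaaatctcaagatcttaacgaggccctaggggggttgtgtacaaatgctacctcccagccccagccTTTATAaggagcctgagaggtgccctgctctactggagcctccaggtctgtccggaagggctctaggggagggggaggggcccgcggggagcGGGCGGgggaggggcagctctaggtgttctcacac
Slc25a5, chrX:36795347-36795596, plus strand: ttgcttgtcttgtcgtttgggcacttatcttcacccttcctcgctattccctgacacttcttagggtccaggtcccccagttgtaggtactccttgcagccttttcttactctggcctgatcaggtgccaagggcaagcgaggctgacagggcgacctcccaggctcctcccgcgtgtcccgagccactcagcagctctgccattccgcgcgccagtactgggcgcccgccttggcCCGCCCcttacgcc
Slc25a3, chr10:91123968-91124217, minus strand: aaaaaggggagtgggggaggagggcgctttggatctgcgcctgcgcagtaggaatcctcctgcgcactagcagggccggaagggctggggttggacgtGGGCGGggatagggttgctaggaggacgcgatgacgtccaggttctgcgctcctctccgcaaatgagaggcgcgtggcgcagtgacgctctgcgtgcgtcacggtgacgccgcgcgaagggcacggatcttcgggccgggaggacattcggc

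The Slc4a5 window held 6 CpG dinucleotides, with an observed over expected ratio of 0.245, and the windows of Slc25a5 and Slc25a3 held 14 and 27, with ratios of 0.617 and 1.05. All 3 windows had similar GC contents of 62.8%, 61.6% and 66.4%. Each held 1 GC box, which in the Slc25a5 window was on the opposite strand. The Slc4a5 window also held 1 TATA match, on the opposite strand, and none of the 3 held a CCAAT or E-box match. Over all 32851 windows of the table, 32.7% held the GC box, 33.8% CCAAT, 12.4% TATAAA and 6.02% CACGTG. A match to these letters is not evidence of binding.

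Windows were found for 114 members, some with several starts, and these 156 windows had a median CpG ratio of 0.647. The 167 windows of solute carrier rows under 0.5 FPKM had a median of 0.345, while those of all genes kept had 0.729 and those of all rows under 0.5 FPKM 0.256. A ratio of at least 0.6 was found in 56.4% of the members' windows and in 21.6% of those of the solute carrier rows under the threshold. For all genes kept the share was 66.6%, above that of the members, and for all rows under 0.5 FPKM it was 19.2%. The GC box was present in 66.0% of the members' windows and 33.5% of those of the solute carrier rows under the threshold. In the same order TATAAA was in 7.69% and 10.8%, CCAAT in 35.9% and 28.7% and CACGTG in 12.8% and 9.58%. Over the windows of all genes kept the shares were 59.0% for the GC box, 6.03% for TATAAA, 35.8% for CCAAT and 8.61% for CACGTG. Over those of all rows under 0.5 FPKM they were 24.1%, 17.97%, 34.2% and 4.598%. Within the members, the 62 windows of 42 genes at 10 FPKM or more had a median ratio of 0.624. The 34 windows of 27 genes under 2 FPKM had one of 0.551. These medians are over windows, so a gene with several starts counts several times. The Slc25 windows held TATAAA in 0 of 34 and the GC box in 73.5%, beside the shares over all genes kept just given. The windows of the other organic solute class were alike, with TATAAA in 0 of 26 and the GC box in 73.1%. These shares describe the annotation beside the levels that chose the members and carry no test.

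**Figure D2:**
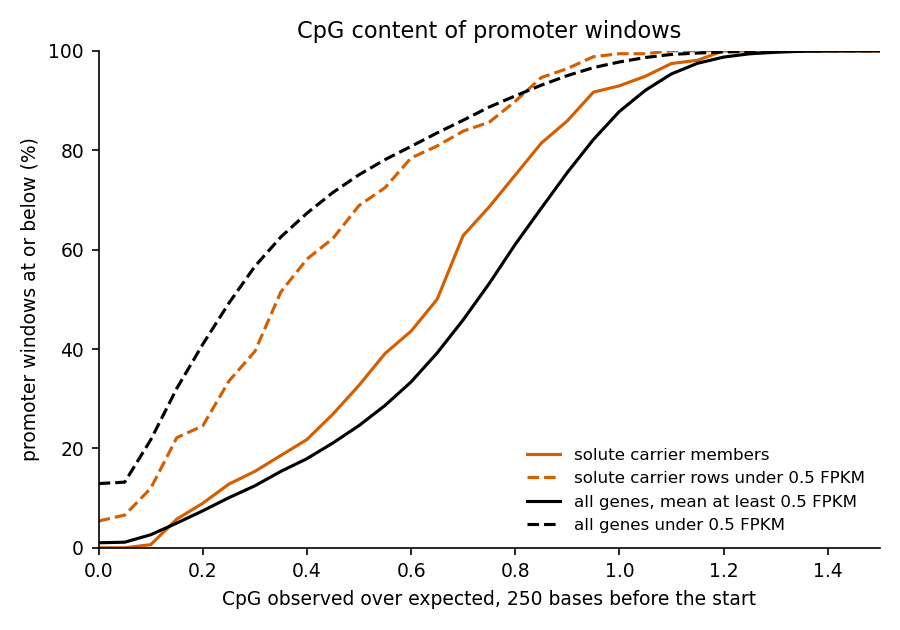
Cumulative share of promoter windows (vertical axis, percent) at or below a CpG observed over expected ratio (horizontal axis) in the 250 bases before the start, for solute carrier members and solute carrier rows under 0.5 FPKM (orange, solid and dashed) and for all genes on either side of the same threshold (black). Over most of the range the members' curve lies to the left of that of all genes kept, with medians of 0.647 and 0.729. The rows under 0.5 FPKM lie further to the left in both colours.

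The 35 Slc25 carriers were classed as mitochondrial by family only, not by the location of each protein. They made up most of the members' summed FPKM, 61.0% in wild-type and 60.5% in mutant cells. Slc25a5 and Slc25a3 alone made up 40.7% and 40.6%. None of the 35 was called, beside 0.687% of all genes kept. Their median difference was 0.00, with 18 above 0 and 17 below, and the median size of their differences was 0.06.

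The carriers that serve ATP synthesis were the most abundant. Slc25a5, the ADP/ATP carrier of proliferating cells, was at 869.8 FPKM in wild-type cells and 849.6 FPKM in mutant cells. Slc25a4, the ADP/ATP carrier typical of heart and muscle, was at 149.95 FPKM in wild-type cells and 119 FPKM in mutant cells, with a q-value of 0.452 in the authors' deposited table. It had the largest difference of the Slc25 class, -0.34 on the log2(FPKM + 1) scale. Slc25a5 thus made up 85.3% of the summed level of this pair in wild type and 87.8% in the mutant. A further ADP/ATP carrier, the testis-expressed Slc25a31, was under the threshold, at 0.254 and 0.359 FPKM in wild type and mutant. These genes are close in sequence and have processed copies in the genome, so the split of reads among them is uncertain. Slc25a3, the mitochondrial phosphate carrier, which also brings copper to the matrix, was at 618 FPKM in wild-type cells and 612 FPKM in mutant cells.

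Carriers of carboxylates and of the malate-aspartate shuttle, which passes reducing equivalents into the matrix, had 5 members with a summed level of 192 FPKM in wild-type cells and 194 FPKM in mutant cells. Slc25a1, the citrate carrier that feeds cytosolic lipid synthesis, was at 50.3 FPKM in wild-type cells and 52.7 FPKM in mutant cells. Slc25a13, an aspartate-glutamate carrier of that shuttle, was at 47.6 FPKM in wild-type cells and 49.5 FPKM in mutant cells. Its paralog Slc25a12 was at 45.04 FPKM in wild-type cells and 43.2 FPKM in mutant cells, so that the pair summed to 92.6 FPKM in each genotype. The oxoglutarate carrier Slc25a11 was at 45.4 FPKM in wild-type cells and 45.6 FPKM in mutant cells. Slc25a12 and Slc25a11 are named in addition to the rule, as partners in the shuttle.

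Among carriers of glutathione, carnitine and amino acids, 7 members summed to 248 FPKM in each genotype. Slc25a39, which imports glutathione, was at 156 FPKM in wild-type cells and 160.5 FPKM in mutant cells and accounted for 93.7% and 94.3% of the sum with its paralog Slc25a40. Slc25a20, which exchanges carnitine for acylcarnitine so that fatty acids reach the matrix, was at 21.5 FPKM in wild-type cells and 17.1 FPKM in mutant cells, with a q-value of 0.612. Its difference of -0.32 was the next after that of Slc25a4 in size. Both were uncalled.

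The 10 carriers of nucleotides and cofactors summed to 102 FPKM in wild-type cells and 104 FPKM in mutant cells. Slc25a26, which brings the methyl donor S-adenosylmethionine into mitochondria, was at 10.1 FPKM in wild-type cells and 8.305 FPKM in mutant cells. Slc25a33, a pyrimidine nucleotide carrier, was at 12.8 FPKM in wild-type cells and 14.3 FPKM in mutant cells. Slc25a25, a calcium-regulated exchanger of ATP-magnesium for phosphate, was at 6.35 FPKM in wild-type cells and 7.08 FPKM in mutant cells. Slc25a42, a carrier of coenzyme A, was at 1.13 FPKM in wild-type cells and 1.399 FPKM in mutant cells. The first of these lay below 0 and the others above, and their q-values were 0.941 or more. The iron importers called mitoferrins were both present, with Slc25a28 at 16.2 and 15.9 FPKM in wild type and mutant and Slc25a37 at 3.23 and 2.83 FPKM. Slc25a46, an outer membrane protein of mitochondrial dynamics, was at 5.23 FPKM in wild-type cells and 5.89 FPKM in mutant cells. The less characterised Slc25a35 was at 1.53 and 1.11 FPKM and Slc25a45 at 0.991 and 1.203 FPKM. In the annotation 22.3% of the exon bases of Slc25a35 are shared with Rangrf on the opposite strand. The remaining Slc25 carriers lay within differences of -0.11 and 0.11.

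**Figure D3:**
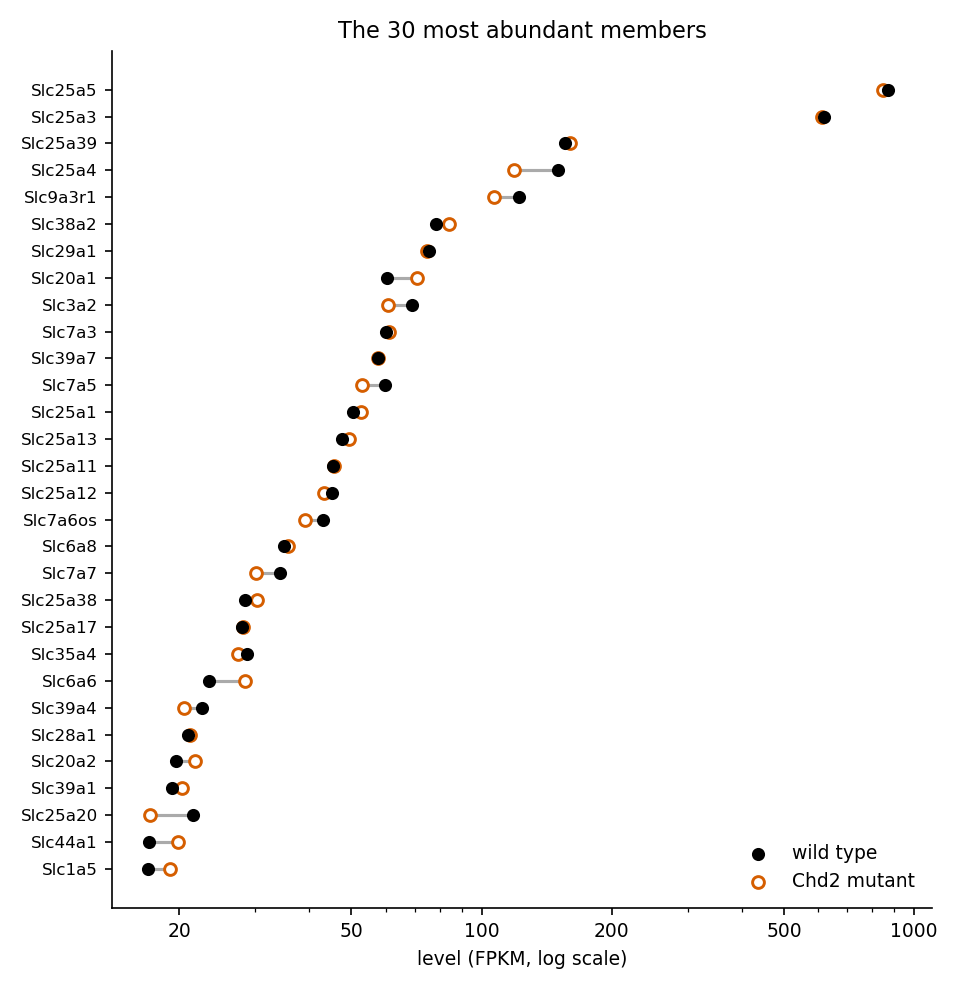
Levels of the 30 most abundant members in wild type (filled circles) and Chd2 mutant cells (open orange circles), in FPKM on a log scale. Slc25a5 and Slc25a3 stand at 870 and 618 FPKM in wild type, and the widest gaps among the 30 are those of Slc25a4, Slc25a20, Slc6a6 and Slc20a1.

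Of the 26 members grouped as amino acid transporters none was called. Their median difference was 0.05, with 18 above 0 and 8 below, and the lowest q-value among them was 0.468. The summed level was 455 FPKM in wild-type cells and 449.8 FPKM in mutant cells. The Slc7 rows had 3 above 0 and 4 below, and the Slc6 rows of the class, 3 in number, lay above 0.

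The heteromeric transporters pair the glycoprotein Slc3a2, known as 4F2hc or CD98, with a light subunit that does the transport. Slc3a2 was at 69.05 FPKM in wild-type cells and 60.7 FPKM in mutant cells. Slc7a5, the light subunit LAT1, which exchanges large neutral amino acids such as leucine, was at 59.7 FPKM in wild-type cells and 52.97 FPKM in mutant cells. The level of Slc7a5 over that of Slc3a2 was 0.864 in wild-type cells and 0.872 in mutant cells, a difference that was not tested. Slc7a7, the light subunit y+LAT1 for cationic amino acids, was at 34.1 FPKM in wild-type cells and 30.1 FPKM in mutant cells. The differences of these 3 lay from -0.18 to -0.17, with q-values of 0.931, 0.946 and 0.972 in the authors' deposited table, and none was called. Slc7a6os, which matched the name pattern, encodes another protein on the opposite strand of Slc7a6 and no transporter. It was at 42.9 FPKM in wild-type cells and 39.1 FPKM in mutant cells.

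Among the cationic amino acid transporters, which bring in arginine and lysine, Slc7a3 was the main form. It was at 59.98 FPKM in wild-type cells and 60.996 FPKM in mutant cells. The widely expressed Slc7a1 was at 7.12 FPKM in wild-type cells and 6.38 FPKM in mutant cells. Slc7a3 made up 89.4% of their sum in wild type and 90.5% in the mutant.

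System A and related sodium-coupled carriers of the Slc38 family had 7 members, 5 above 0. Slc38a2, or SNAT2, a glutamine and alanine carrier induced on amino acid shortage, was the most abundant of the class at 78.5 FPKM in wild-type cells and 83.9 FPKM in mutant cells. Slc38a1, or SNAT1, was at 10.7 FPKM in wild-type cells and 12.4 FPKM in mutant cells. The lysosomal glutamine carrier Slc38a7 was at 5.22 FPKM in wild-type cells and 6.36 FPKM in mutant cells. Slc38a3, or SNAT3, was near the threshold, as given above.

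In the Slc1 family, Slc1a5, the glutamine exchanger ASCT2, named in addition to the rule as the nearest relative of Slc1a4, was at 16.9 FPKM in wild-type cells and 18.996 FPKM in mutant cells. Slc1a4, or ASCT1, which carries alanine, serine, cysteine and threonine, was at 1.45 FPKM in wild-type cells and 2.102 FPKM in mutant cells, with a q-value of 0.468. The Slc6 family supplied Slc6a6, the taurine transporter, at 23.5 FPKM in wild-type cells and 28.3 FPKM in mutant cells, and Slc6a15, a carrier of branched-chain amino acids and proline, at 4.196 FPKM in wild-type cells and 5.59 FPKM in mutant cells. Slc6a15 and Slc1a4 had the largest differences of the class, 0.34 each, and neither was called. The 3 Slc6 rows of the class summed to 28.3 FPKM in wild-type cells and 34.8 FPKM in mutant cells.

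**Figure D4:**
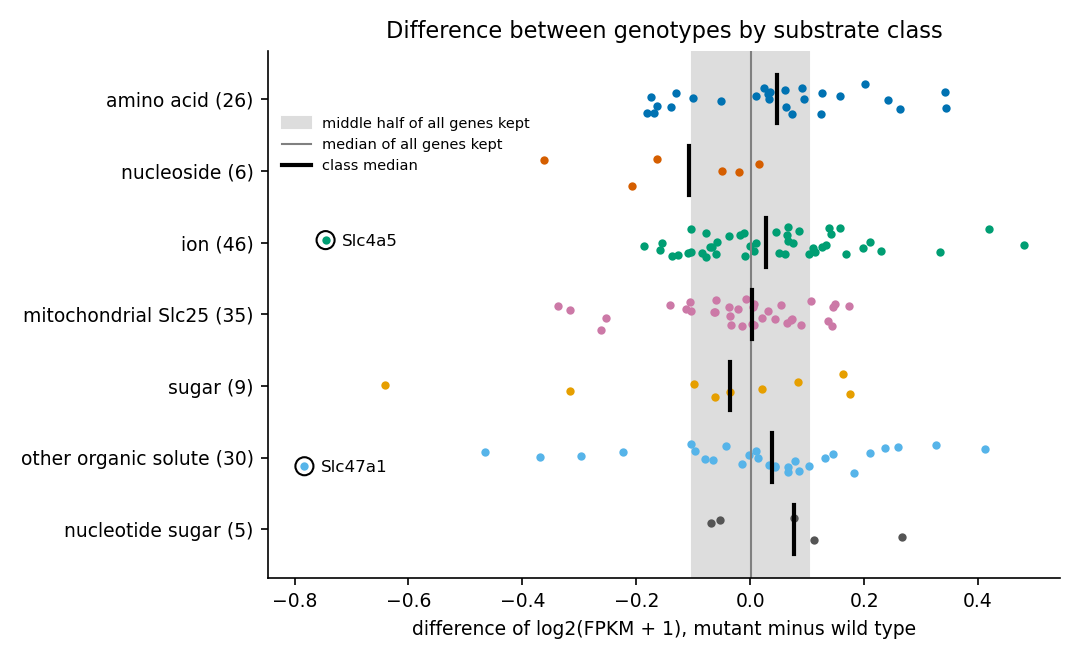
Log2(FPKM + 1) of mutant cells minus that of wild-type cells for each member (points, coloured by substrate class, with random vertical spread); thick bars mark class medians, the grey band the interquartile range of all genes kept and the grey line their median, and black circles the members called by the authors. All class medians but that of the nucleoside transporters, at -0.11, lie inside the band.

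The nucleoside group held 6 members, 5 of them below 0, with a median difference of -0.11 and no call. Nucleoside carriers supply nucleosides for salvage into nucleotides. The group also takes in Slc29a4 and Slc43a3, described below by other substrates, with differences of -0.36 and -0.16. The others lay from -0.21 to 0.01. Slc29a1, the equilibrative transporter ENT1, was at 75.7 FPKM in wild-type cells and 74.6 FPKM in mutant cells and made up most of the group. Its paralog ENT2, encoded by Slc29a2, was at 6.77 FPKM in wild-type cells and 5.72 FPKM in mutant cells. Slc29a3, the lysosomal ENT3, was at 5.12 FPKM in wild-type cells and 4.92 FPKM in mutant cells. Slc29a4, a polyspecific carrier of monoamines that belongs to this family, was at 12.4 FPKM in wild-type cells and 9.402 FPKM in mutant cells, with a q-value of 0.468 in the authors' deposited table, the lowest of the group. Slc28a1, the sodium-coupled pyrimidine nucleoside transporter CNT1, was at 20.9 FPKM in wild-type cells and 21.1 FPKM in mutant cells and was the 1 member above 0. The purine nucleobase carrier Slc43a3 was at 0.744 FPKM in wild-type cells and 0.556 FPKM in mutant cells. Summed over the group, the level was 122 FPKM in wild-type cells and 116 FPKM in mutant cells. Without Slc43a3, the 1 member of the group under 1 FPKM, the median was -0.0496.

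The ion class was the largest, with 46 rows, 26 above 0 and 20 below and a median of 0.03. Slc4a5 was its 1 call. Of these rows, 3 encode no transporter. Slc9a3r1, which encodes the scaffold NHERF1 that anchors transporters to the cytoskeleton, was at 122 FPKM in wild-type cells and 107 FPKM in mutant cells. Slc9a3r2, encoding the related NHERF2, was at 12.9 FPKM in wild-type cells and 18.4 FPKM in mutant cells, and had the largest difference above 0 of all members at 0.48, with a q-value of 0.183. The paralogs thus lay on opposite sides of 0. Slc4a1ap, which encodes kanadaptin, was at 17.8 FPKM in wild-type cells and 16.5 FPKM in mutant cells.

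Among bicarbonate transporters, which set intracellular pH, the chloride-bicarbonate exchanger AE2 of Slc4a2 was the main form, at 15.7 and 15.5 FPKM in wild type and mutant. Slc4a2 was named after its values were seen, to set beside Slc4a5. It made up 92.9% of the sum with Slc4a5 in wild type and 98.0% in the mutant. Slc4a11, once named a borate transporter and known to conduct protons, was at 3.82 FPKM in wild-type cells and 5.45 FPKM in mutant cells. It had a difference of 0.42 and a q-value of 0.287, and was not called. Of the remaining members of the family, also named after their values were seen, Slc4a3 was at 0.569 and 0.693 FPKM in wild type and mutant and Slc4a7 at 3.77 and 4.35 FPKM, with differences of 0.11 and 0.17.

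The sodium-proton exchangers had 3 members that transport. Slc9a8, a Golgi exchanger, was at 3.49 FPKM in wild-type cells and 4.19 FPKM in mutant cells. The phosphate carriers Slc20a1 and Slc20a2, also receptors for retroviruses, were both above 0. Slc20a1 was at 60.3 FPKM in wild-type cells and 70.9 FPKM in mutant cells and Slc20a2 at 19.6 FPKM in wild-type cells and 21.7 FPKM in mutant cells, with q-values of 0.806 and 0.972. Together they summed to 80.0 FPKM in wild-type cells and 92.6 FPKM in mutant cells. Slc24a6, the mitochondrial sodium-calcium exchanger NCLX, was at 10.6 FPKM in wild-type cells and 9.46 FPKM in mutant cells. Of the 6 cation-chloride cotransporters, which set cell volume, 3 lay above 0 and 3 below, and none was called.

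Zinc carriers were numerous and close to each other between the genotypes. The importers of the Slc39 family, which raise cytosolic zinc, had 10 of 14 rows as members. They summed to 148 FPKM in wild-type cells and 145 FPKM in mutant cells, with 5 above 0 and 5 below. Slc39a7, or ZIP7, which releases zinc from the endoplasmic reticulum and Golgi, was at 57.7 FPKM in wild-type cells and 57.7 FPKM in mutant cells. Most of its annotated exon bases, 84.5%, are shared with Gm20427 on the same strand. Slc39a4, the intestinal uptake carrier ZIP4, was at 22.6 FPKM in wild-type cells and 20.5 FPKM in mutant cells, and Slc39a1 was at 19.2 FPKM in wild-type cells and 20.3 FPKM in mutant cells. Slc39a11 was at 3.19 FPKM in wild-type cells and 2.75 FPKM in mutant cells. The exporters of the Slc30 family, which lower cytosolic zinc, had 7 of 10 rows as members and summed to 50.4 FPKM and 52.5 FPKM, with 5 above 0. No zinc carrier was called, beside 0.687% of all genes kept, and no importer differed by as much as 1.2-fold.

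Among the 30 transporters of other organic solutes Slc47a1 was the 1 call, and the median difference was 0.04, with 18 above 0 and 12 below. The most abundant was the creatine transporter Slc6a8, at 34.9 FPKM in wild-type cells and 35.7 FPKM in mutant cells. The choline-like transporters, which serve phospholipid synthesis, had 3 members, all above 0. Slc44a1 was at 17.01 FPKM in wild-type cells and 19.8 FPKM in mutant cells and Slc44a2 at 10.2 FPKM in wild-type cells and 12.2 FPKM in mutant cells. Slc17a9, which loads ATP into vesicles, was at 11.96 FPKM in wild-type cells and 15.2 FPKM in mutant cells.

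Of the folate and thiamine families no member was called. Slc19a1, the reduced folate carrier, was at 10.3 FPKM in wild-type cells and 7.19 FPKM in mutant cells, with a difference of -0.47 and a q-value of 0.218 in the authors' deposited table. Slc46a1, the proton-coupled folate transporter, was at 8.61 FPKM in wild-type cells and 7.23 FPKM in mutant cells, with a q-value of 0.923. Its relative Slc46a3, chosen with its values known, lay above 0, at 0.547 and 0.6199 FPKM in wild type and mutant. The thiamine transporter Slc19a2, of the same family as Slc19a1, was at 13.6 FPKM in wild-type cells and 15.2 FPKM in mutant cells. The level of Slc19a2 over that of Slc19a1 was 1.32 in wild-type cells and 2.11 in mutant cells. The difference between these ratios was not tested. Slc27a2, a very long chain acyl-CoA synthetase and fatty acid transporter, was at 18.3 FPKM in wild-type cells and 14.7 FPKM in mutant cells. The riboflavin transporter Slc52a3 was at 2.61 FPKM in wild-type cells and 1.796 FPKM in mutant cells. Slc16a13, of the monocarboxylate family, was at 1.72 FPKM in wild-type cells and 2.62 FPKM in mutant cells, with a plain ratio of 1.52 and a q-value of 0.472. Slc22a7, an organic anion transporter of liver and kidney, was at 1.1998 FPKM in wild-type cells and 1.63 FPKM in mutant cells.

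Of the 9 sugar transporters kept, 4 lay above 0 and 5 below, with a median of -0.04 and no call. Slc5a4b, of the sodium-glucose cotransporter family, was at 2.45 FPKM in wild-type cells and 1.21 FPKM in mutant cells. Its difference of -0.64 was exceeded in size among the members by those of the called genes alone, and its q-value of 0.0964 in the authors' deposited table was the lowest of an uncalled member. Its close copy Slc5a4a was listed at 0 and 0.0189 FPKM. Slc5a11, a myo-inositol transporter of the same family, was at 2.49 FPKM in wild-type cells and 1.80002 FPKM in mutant cells. The intracellular hexose carrier Slc2a8, or GLUT8, was at 6.24 FPKM in wild-type cells and 7.101 FPKM in mutant cells. Slc50a1, or SWEET1, was at 6.23 FPKM in wild-type cells and 6.66 FPKM in mutant cells, and Slc45a4 at 15.2 FPKM in wild-type cells and 17.3 FPKM in mutant cells. The sugar phosphate carriers Slc37a1, Slc37a3 and Slc37a4 were at 6.55 and 6.06 FPKM, 7.36 and 7.15 FPKM and 1.49 and 1.53 FPKM in wild type and mutant, the last being the glucose-6-phosphate translocase of the endoplasmic reticulum. Slc45a3 was at 0.592 and 0.526 FPKM.

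Of the 5 nucleotide sugar transporters kept, which feed glycosylation in the Golgi, 3 lay above 0 and none was called. The name pattern takes in only Slc35 genes with the letter a. Slc35a1, the CMP-sialic acid carrier, was at 9.13 FPKM in wild-type cells and 9.94 FPKM in mutant cells. Slc35a2, the UDP-galactose carrier, was at 5.55 FPKM in wild-type cells and 5.91 FPKM in mutant cells. Slc35a3, the UDP-N-acetylglucosamine carrier, was at 3.202 FPKM in wild-type cells and 4.06 FPKM in mutant cells, with a q-value of 0.681. Slc35a4 was at 28.7 FPKM in wild-type cells and 27.3 FPKM in mutant cells, and Slc35a5 at 1.52 FPKM in wild-type cells and 1.43 FPKM in mutant cells.

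Genes that set the conditions for these transporters were listed by role, and none of the 7 lists held a call. Over all genes kept 0.687% were called, so the absence of calls in such short lists says little about them. The pumps that build the sodium and calcium gradients kept 13 of 16 genes, 6 above 0 and 7 below. Fxyd7, a sodium pump regulator, was at 0.402 FPKM in wild-type cells and 1.15 FPKM in mutant cells. It was kept only through its level in the mutant and was not called. The machinery that inserts Slc25 carriers, together with mitochondrial channels, kept 21 of 23, 8 above 0 and 13 below and a median of -0.04. Within it Mcu, the pore of the calcium uniporter, was at 5.31 and 6.56 FPKM in wild type and mutant.

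The amino acid response genes, many of them targets of the transcription factor ATF4 like several amino acid transporters, kept 19 of 20, with 13 above 0 and a median of 0.09. Ddit3, which encodes the stress factor CHOP, was at 5.22 FPKM in wild-type cells and 3.43 FPKM in mutant cells. Atf5 was at 22.2 FPKM in wild-type cells and 15.9 FPKM in mutant cells. Their q-values in the authors' deposited table were 0.998 and 0.958. Lysosomal amino acid sensing around mTORC1 kept 19 of 21, with 13 above 0 and a median of 0.04. Rragb, a Rag GTPase of that pathway, was at 8.12 FPKM in wild-type cells and 11.8 FPKM in mutant cells, with a q-value of 0.128, and Depdc5, of the GATOR1 complex that restrains it, at 7.15 FPKM in wild-type cells and 9.04 FPKM in mutant cells.

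Regulators of chloride and pH kept 12 of 19, with 4 above 0. Sgk1, a kinase that promotes sodium transport, was at 98.1 FPKM in wild-type cells and 77.4 FPKM in mutant cells, and Car2, a carbonic anhydrase, at 35.6 FPKM in wild-type cells and 29.4 FPKM in mutant cells. Zinc and copper handling kept 7 of 8, with the metallothionein Mt1 at 1407 FPKM in wild-type cells and 1686 FPKM in mutant cells and the copper chaperone Atox1 at 1034 FPKM in wild-type cells and 858 FPKM in mutant cells. Transporters and partners with other names kept 13 of 20, with Ank, a pyrophosphate exporter, at 1.43 FPKM in wild-type cells and 1.87 FPKM in mutant cells and Mtch2, an outer membrane insertase, at 67.9 FPKM in wild-type cells and 59.1 FPKM in mutant cells.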

How the data were processed

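RNA of 4 libraries, 2 wild type and 2 Chd2 mutant, was sequenced from libraries made with the NEBNext Ultra kit, per the labels' protocols. The tools named in the submitters' processing notes are TopHat2 2.1.0, Cufflinks and, for base calls, bcl2fastq 2.17.1.14, with mm9 as the build. No source used here gives the Cufflinks version, the gene annotation or the use of strand. The authors deposited 1 FPKM value per gene and genotype, a log2 fold change without a pseudocount, and a q-value with a call for each gene. The values of the lots are not analysed here, so the authors' calls (q under 0.05) took the place of a test, and groups are described by counts and medians of log2(FPKM + 1) differences.

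The members and lists were chosen with earlier results of these data known. Substrate classes were set by family, with exceptions for single genes. Named genes were called members, the 6 most abundant and 5 largest differences in each direction per class, 3 rows on each side of the threshold, rows that encode no transporter, and the 2 largest differences of each related list; a few genes that the rule names are not reported here, and others are said to be additions, among them the partners set beside a named paralog. Exon overlaps were taken from GENCODE M21 and promoters from RefSeq, both GRCm38, matched by symbol. Of 157 members, 33 share exon bases with a gene on the opposite strand and 7 with one on the same strand. The computation of the medians was checked on simulated data with known differences, and no median was tested statistically. Python 3.11.15 and pandas 2.3.3 were used.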

Additional observations from a re-analysis of the deposited data

How the results depend on the processing

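Pseudocounts of 0.1 or none, means of at least 1 or 5 FPKM or no filter, quantile normalization, centring on the median, leaving out rows that encode no transporter and putting back the 8 genes left out were tried. No median of the members or of the amino acid, ion, Slc25 or nucleoside class changed its sign. Centring could not change it, because the median over all genes kept, 0.00055, was smaller in size than each of these medians. Pseudocounts keep the sign of every gene, so they left little room for a median to change. The nucleoside median moved from -0.11 to -0.0496 when a mean of 1 FPKM or of 5 FPKM was asked for, both of which remove Slc43a3. The number of members called was 1 with a mean of at least 1 FPKM or with 0.5 FPKM in both genotypes (chosen after seeing the data), since Slc4a5 then drops out, and 0 at 5 FPKM. With a q of at most 0.02 it stayed 2, which had to be so because both genes have the lowest q-value of the table. Putting back the genes left out adds Slc40a1, called higher in the mutant at 1.65 and 3.24 FPKM in wild type and mutant, and a q under 0.1 adds Slc5a4b. Slc47a1 and Slc4a5 stayed lower under every scale and centring, from -1.22 to -0.78 and from -1.94 to -0.75. A pseudocount cannot reverse the sign of a gene's difference, so those settings show only how its size depends on the scale. Quantile normalization changed the sign of 9 of the 157 members, and its median over all genes kept was 0.01. No paired analysis was possible because the table holds no values per lot, and for the same reason no library could be left out.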

Other observations

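Solute carrier rows under the level of 0.5 FPKM numbered 176, none of them called, and 52 of these were listed at 0 in both genotypes. The genes named here were chosen after their values were seen. Slc7a11, the cystine importer xCT and a light subunit of Slc3a2, was listed at 0.106 FPKM in wild-type cells and 0.0832 FPKM in mutant cells. The medium of these cells contains beta-mercaptoethanol, per the labels, and a link between it and the level of Slc7a11 was not tested. Slc3a1, the other heavy subunit, was listed at 0 in both. The glial glutamate transporter Slc1a2 was at 0.00566 and 0.00568 FPKM. Of the concentrative nucleoside transporters, Slc28a3 was at 0.376 and 0.243 FPKM in wild type and mutant and Slc28a2 was listed at 0 in both, beside 20.9 and 21.1 FPKM for Slc28a1.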
